A study of Homo sapiens with 6 samples.

Results

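The ATP-dependent proteases of the inner mitochondrial membrane are rings built from subunits that each carry an AAA motor domain and a zinc metallopeptidase domain. SPG7 (paraplegin) and AFG3L2 form the m-AAA protease, whose active sites face the matrix, and YME1L1 forms the i-AAA protease, whose active sites face the intermembrane space. Both enzymes remove damaged membrane proteins and process selected substrates, loss of SPG7 or AFG3L2 causes inherited diseases with spasticity or ataxia, and AFG3L1P is a human pseudogene whose mouse counterpart encodes another m-AAA subunit.

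The 4 genes described are SPG7, YME1L1, AFG3L2 and AFG3L1P. Their members are the skipped-exon events whose middle exon lies on the gene's own strand in GENCODE 29, and there were 56 such events with 46 different skipped exons, of 47986 events with 40658 skipped exons in all. SPG7 held 36 of these exons, AFG3L1P 6 and YME1L1 4. AFG3L2 had no event in the summaries, so nothing is reported on its splicing. The genes were chosen by their inclusion levels and their inclusion and exclusion reads in these same pools, so those values are given below as a description and carry no test.

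RNA came from MDA-LM2 cells, a highly metastatic derivative of the human breast cancer line MDA-MB-231, 48 h after siRNA transfection. There were 3 libraries of cells given siRNAs against SNRPA1, 1 library of cells given siRNA against SNRPB, and 2 libraries of cells given the control siRNA, siCtrl. The labels do not say which of the 3 SNRPA1 siRNAs each SNRPA1 library received. For SNRPB the submitters' design mentions 2 siRNAs but the samples used here hold a single library, and it writes SNRPB2 once. The groups here follow the sample labels. SNRPA1 encodes the A′ protein of the U2 snRNP, a particle of the spliceosome, and SNRPB encodes a core Sm protein that most spliceosomal snRNPs share. Each group reached the summaries as a single pool, so no difference below has a replicate check, whether libraries came from separate cultures is not stated, and all groups share 1 line and 1 time point.

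Each event sets an inclusion isoform, which holds the middle exon, against an exclusion isoform, which joins its neighbours. The inclusion level is the authors' estimate of the share of the inclusion isoform against the exclusion isoform of the same event, from 0 to 1. It is no share of all transcripts of the gene. Forms of 1 exon are each set against skipping alone, so their levels can sum to more than 1. Informative reads fit only 1 of the isoforms, and the pools held 7831446 (siSNRPA1), 3396043 (siSNRPB) and 5707839 (siCtrl) of them over all events. An exon is called past the threshold here when both pools had at least 20 informative reads, the inclusion level differed by at least 0.1, the share of inclusion reads moved the same way, and the 95% Wilson intervals of the shares did not overlap. These intervals cover counting error only, since reads without molecular identifiers are not independent molecules. By reads that fit at least 1 isoform over a gene's skipped exons, counted per 1000000 such reads of the pool (RPM), SNRPA1 had 21.9 RPM in the siSNRPA1 pool and 118 in the siCtrl pool. SNRPB had 30.6 RPM in the siSNRPB pool and 247 in the siCtrl pool. Each target was higher in the other knockdown than in siCtrl, SNRPA1 at 272 RPM in the siSNRPB pool and SNRPB at 337 RPM in the siSNRPA1 pool. Of 8 genes listed as markers of a mesenchymal-like breast line, CD44, ITGB1, EGFR, AXL and ANXA1 had reads in all 3 pools and VIM, MSN and CAV1 had no event. Of 8 luminal or epithelial markers, CDH1, ESR1 and ESRP1 lay between 0 and 2.75 RPM and GATA3 between 15.3 and 22.1, but KRT8 reached 800 to 870 RPM, and EPCAM, ERBB3 and KRT18 had no event.

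The exons past the threshold against siCtrl are shown first, because what they add to or remove from the transcript differs between the genes. All SPG7 exons of this kind lie inside introns of the reference transcript chosen in GENCODE 29, whose product has 795 residues, and each brings a stop codon into the reading frame that enters it. All but the exon between exons 10 and 11 are printed 5′ to 3′ from the first base of the exon to that stop codon, which is in capitals, from GENCODE 29 transcripts on hg38, plus strand. The exon that starts between exons 3 and 4 (278 nt, printed part chr16:89519978-89520042) would end the protein after 146 residues. The exon between exons 9 and 10 (forms of 403, 441 and 1336 nt with 1 start, printed part chr16:89540944-89541011) would end it after 463 residues. The exon between exons 10 and 11 (forms of 108, 124, 159 and 310 nt with 1 start, not printed) would end it after 511 residues. The exon between exons 12 and 13 has forms of 357 nt (printed part chr16:89548980-89549122) and 256 nt (printed part chr16:89549081-89549139), which would end it after 601 and 573 residues.
SPG7 278 nt: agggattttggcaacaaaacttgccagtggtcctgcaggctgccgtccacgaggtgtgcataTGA
SPG7 403, 441 and 1336 nt: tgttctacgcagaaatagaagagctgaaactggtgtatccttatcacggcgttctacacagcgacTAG
SPG7 357 nt: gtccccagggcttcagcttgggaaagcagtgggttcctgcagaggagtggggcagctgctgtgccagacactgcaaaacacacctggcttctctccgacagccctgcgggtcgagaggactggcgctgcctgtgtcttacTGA
SPG7 256 nt: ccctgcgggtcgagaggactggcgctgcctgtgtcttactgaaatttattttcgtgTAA

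In the other genes the exons past the threshold are exons of the reference transcript or forms of one. The YME1L1 exon is coding exon 4 of the reference transcript (chr10:27142387-27142485, hg38, minus strand), 99 nt long. It encodes residues 111 to 144 of 716, ahead of the Walker A motif at residue 322, and leaving it out keeps the reading frame. The AFG3L1P exon is exon 2 of a noncoding transcript (longest form chr16:89977605-89977802, hg38, plus strand). Its forms of 198, 164 and 125 nt share their last base, and capitals in its sequence mark the 125 bases that all forms hold. The YME1L1 exon is printed in lower case throughout.
YME1L1 99 nt: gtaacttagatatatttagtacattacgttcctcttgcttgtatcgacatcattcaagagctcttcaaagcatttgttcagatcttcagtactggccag
AFG3L1P 198 nt: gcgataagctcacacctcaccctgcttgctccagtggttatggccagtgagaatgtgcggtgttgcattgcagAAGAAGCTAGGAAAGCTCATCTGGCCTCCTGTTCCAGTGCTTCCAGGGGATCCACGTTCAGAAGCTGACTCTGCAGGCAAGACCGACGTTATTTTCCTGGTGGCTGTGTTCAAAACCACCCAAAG

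The reference proteins of the 3 coding genes are related but not near-identical. SPG7 and AFG3L2 shared 48.1% of 643 aligned residues, SPG7 and YME1L1 40.3% of 434, and YME1L1 and AFG3L2 45.8% of 424. The longest run of bases shared between the reference transcripts of any pair of the 4 genes was 25 nt, between SPG7 and AFG3L1P. Both genes lie on the same chromosome, at chr16:89490719-89557768 and chr16:89972586-90002161. The SPG7 exons past the threshold are not in its reference transcript, so their bases were not compared. The AAA motor's nucleotide-binding (Walker A) motif falls in exon 8 of SPG7 and the zinc-binding motif of the peptidase in exon 13, at residue 574. The first stop codon of the included 403-nt or 108-nt exon family thus lies after the Walker A motif and before the zinc-binding motif, and that of the 278-nt exon lies before both.

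Against siCtrl, the siSNRPA1 pool had 8 member exons past the threshold of 39 with enough reads, 4 higher and 4 lower. Over all exons 5.24% of 17856 were past it, 1.24% higher and 4% lower. The 4 higher exons were all forms of the SPG7 exon between exons 10 and 11, and the 4 lower were the 3 forms of AFG3L1P exon 2 and YME1L1 exon 4. The siSNRPB pool had 6 of 33, 3 higher and 3 lower, all in SPG7, where 5.7% of 14013 exons were past the threshold, 1.16% higher and 4.55% lower. Forms of 1 exon share reads, so these counts repeat some sites. Of groups of overlapping exons, 3 of 21 held an exon past the threshold in the siSNRPA1 comparison and 3 of 20 in the siSNRPB one. The share over all such groups was not computed, so these counts are not to be set beside the shares of single exons. No member exon was past the threshold in both knockdowns, and 14 were in one or the other. Of these, the SPG7 108-, 124- and 159-nt exons had too few reads in the siSNRPB pool to be compared there. The share of all exons past the threshold in both knockdowns was not computed, so the lack of overlap is not read as a result. These comparisons share the siCtrl pool, and the shallower siSNRPB pool left fewer exons with enough reads. Among exons with at least 5 inclusion and 5 exclusion reads over the pools compared, 8 of 25 member exons were past the threshold in the siSNRPA1 comparison, where the share over all such exons was 14.4%. By the same measure 6 of 14 were past it in the siSNRPB comparison, where the share over all such exons was 18.2%.

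**Figure D1:**
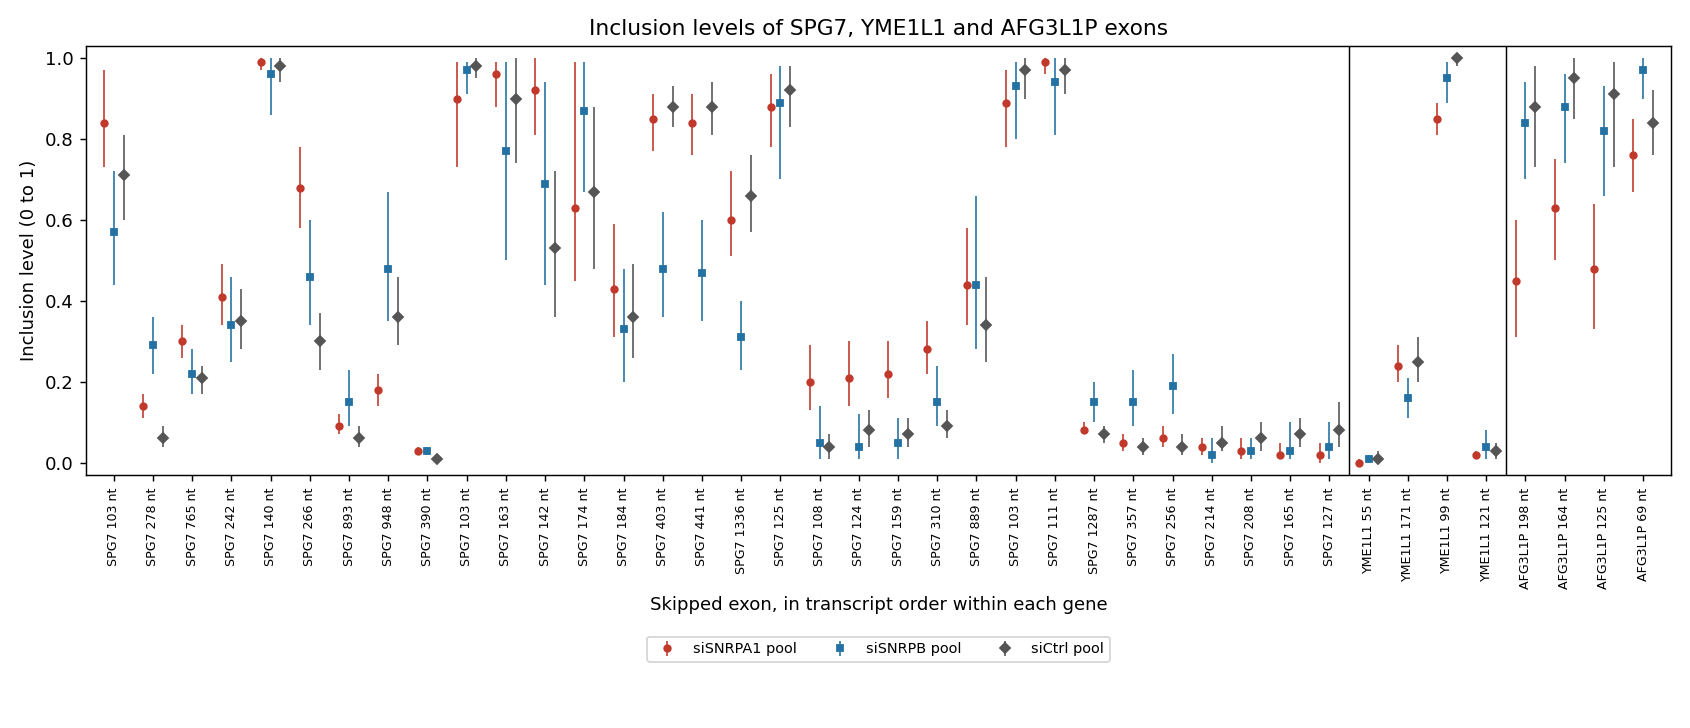
Inclusion level, 0 to 1, of the 40 exons of SPG7, YME1L1 and AFG3L1P with at least 20 informative reads in at least 1 pool, in transcript order. Points are the siSNRPA1 (red circles), siSNRPB (blue squares) and siCtrl (grey diamonds) pools, with bars for the authors' interval around each level, whose width is not stated. The siSNRPA1 points lie apart at the 3 forms of AFG3L1P exon 2 and the 108 to 310 nt SPG7 exons, and the siSNRPB points at the 403, 441 and 1336 nt SPG7 exons.

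SPG7 is the m-AAA subunit with 96 annotated transcripts, and its 36 skipped exons fall into 9 coding exons of the reference transcript, 6 forms that overlap a reference exon, and 21 others, of which all but the 98-, 50- and 56-nt exons were placed between reference exons. The 9 coding exons (exons 2, 4, 5, 6, 8, 9, 10, 11 and 12) had 1136 inclusion and 5 exclusion reads in the siSNRPA1 pool, 441 and 0 in the siSNRPB pool, and 989 and 3 in the siCtrl pool. None was past the threshold in either knockdown. An exon with no exclusion read in both pools compared cannot pass it, because its shares are then equal. Of these 9 exons, 7 in the siSNRPA1 pool, 9 in the siSNRPB pool and 8 in the siCtrl pool had no exclusion read. By level the differences from siCtrl ran from -0.08 to 0.13 in the siSNRPA1 pool and from -0.14 to 0.20 in the siSNRPB pool. The events used for exons 4, 5, 9 and 11 do not have the adjacent reference exons on both sides. Exon 9 is set between exons 7 and 11, the event of exon 11 passes over exon 12, and exons 4 and 5 have the 390-nt exon downstream. For these exons the exclusion reads do not count the loss of that exon alone from the reference transcript. By sequence, leaving out a single exon would shift the frame for 7 of these 9 and keep it for exons 9 and 12. All SPG7 exons past the threshold were among the exons that the reference transcript does not have.

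The SPG7 exon between exons 10 and 11 had higher inclusion levels in the siSNRPA1 pool than in the siCtrl pool. Its 4 forms start at the same base and share their exclusion reads, 45 in the siSNRPA1 pool, 17 in the siSNRPB pool and 57 in the siCtrl pool, so they are not independent observations. GENCODE places these forms in transcripts marked for nonsense-mediated decay, in retained-intron transcripts or in other noncoding ones, and in no protein-coding transcript. Nonsense-mediated decay is the pathway that destroys messages with an early stop codon. The shortest, 108 nt, had an inclusion level of 0.20 in the siSNRPA1 pool, 0.05 in the siSNRPB pool and 0.04 in the siCtrl pool. It rested on 26 inclusion reads in the siSNRPA1 pool, 1 in the siSNRPB pool and 4 in the siCtrl pool. The share of inclusion reads was 36.6% (95% Wilson interval 26.4 to 48.2) in the siSNRPA1 pool and 6.56% (2.58 to 15.7) in the siCtrl pool, a difference of 30.1 points with a 95% Newcombe interval of 16.3 to 42.3. The siSNRPA1 pool stood above both others. Reads lying wholly inside an exon count as inclusion, and the libraries were of total RNA. Reads of unspliced RNA there are thus not told apart from use of the exon, and their part was not tested. The same limit holds for the other SPG7 exons inside introns.

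The 159-nt form, present in 12 annotated transcripts, had levels of 0.22 (siSNRPA1), 0.05 (siSNRPB) and 0.07 (siCtrl), with 36, 2 and 12 inclusion reads in that order. The 124-nt form had levels of 0.21, 0.04 and 0.08 in the same order. The 310-nt form stood above these, at 0.28 in the siSNRPA1 pool, 0.15 in the siSNRPB pool and 0.09 in the siCtrl pool, with 81, 15 and 28 inclusion reads. Each form was thus 0.13 to 0.19 higher in the siSNRPA1 pool than in siCtrl. In the siSNRPB pool 3 of the forms had only 18 or 19 informative reads, under the minimum, so the siSNRPB pool was compared with siCtrl for the 310-nt form alone, where the difference of 0.06 was not past the threshold. The 310-nt form's share was 13.9 points higher in the siSNRPB pool, with a Newcombe interval of -5.23 to 32.9 that leaves the direction undetermined at this depth. The longest form, 889 nt, runs on through reference exon 11 and was at 0.44, 0.44 and 0.34, with 0 to 2 exclusion reads in each pool.

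The SPG7 exon between exons 9 and 10 lay lower in the siSNRPB pool by the inclusion level. The 403-nt form was at 0.85 in the siSNRPA1 pool, 0.48 in the siSNRPB pool and 0.88 in the siCtrl pool. The 441-nt form was at 0.84, 0.47 and 0.88, and the 1336-nt form at 0.60, 0.31 and 0.66, in the same order of pools. All forms share a start and the same few exclusion reads, 8 in the siSNRPA1 pool, 9 in the siSNRPB pool and 10 in the siCtrl pool. Beside these, the 403-nt form had 270, 66 and 371 inclusion reads. Its share of inclusion reads was 88.0% in the siSNRPB pool and 97.4% in the siCtrl pool, a difference of -9.38 points (Newcombe interval -18.7 to -3.42), beside a difference in level of -0.40. The siSNRPB pool was the lowest of the 3 by either measure, but the size of the difference depended on which was read.

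The same 403 bases also appear in an event that starts from reference exon 3 in place of exon 9. There the level was 0.20 in the siSNRPA1 pool, 0.12 in the siSNRPB pool and 0.27 in the siCtrl pool, so the level depended on the neighbour the event used. In GENCODE 29 each form of this exon is found in 1 transcript, marked for nonsense-mediated decay. That event has nearly the same inclusion reads (259, 66 and 362) and no exclusion read, so it is no separate observation.

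The SPG7 exon of 278 nt, between exons 3 and 4, had a higher inclusion level in the siSNRPB pool. Its level was 0.14 in the siSNRPA1 pool, 0.29 in the siSNRPB pool and 0.06 in the siCtrl pool. The reads were 79 inclusion and 12 exclusion in the siSNRPB pool and 37 inclusion and 22 exclusion in the siCtrl pool, a difference in share of 24.1 points (Newcombe interval 10.1 to 38.0). The siSNRPA1 pool, with 92 inclusion and 36 exclusion reads, lay between the others and was not past the threshold.

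The SPG7 exons of 357 and 256 nt, which end at the same base between exons 12 and 13, also had higher inclusion levels in the siSNRPB pool. The 256-nt form was at 0.06 (siSNRPA1), 0.19 (siSNRPB) and 0.04 (siCtrl). The 357-nt form was at 0.05, 0.15 and 0.04 in the same order. They share their exclusion reads and most of their inclusion reads. In the siSNRPB pool 19 inclusion reads stood beside 28 exclusion reads for either form, and in the siCtrl pool 11 (256 nt) and 14 (357 nt) stood beside 90. The share of the 256-nt form was 40.4% in the siSNRPB pool and 10.9% in the siCtrl pool, a difference of 29.5 points (14.7 to 44.5), while the siSNRPA1 pool, with 35 inclusion reads of 234 informative reads, lay close to siCtrl. A 214-nt exon further along the same intron was low in every pool, at 0.04, 0.02 and 0.05.

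**Figure D2:**
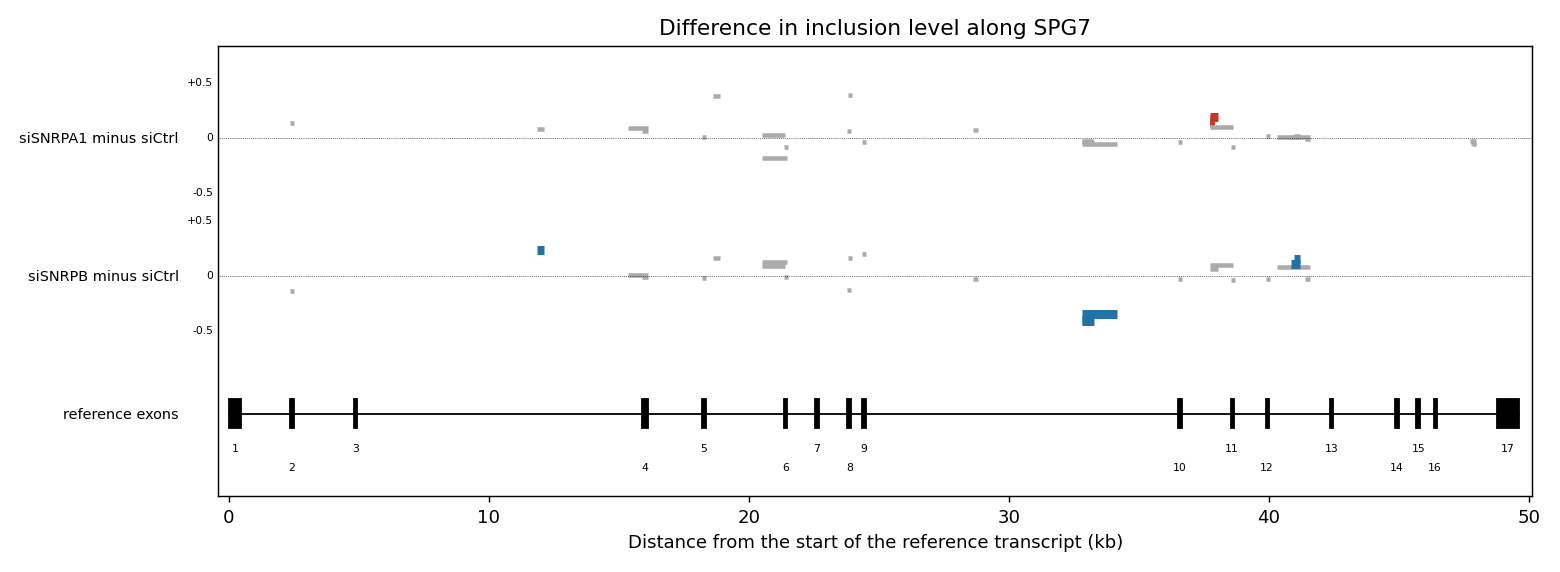
Difference in inclusion level along SPG7 for siSNRPA1 minus siCtrl (upper track) and siSNRPB minus siCtrl (middle track), by distance in kb from the start of the reference transcript, whose 17 exons are black boxes below. Bars are skipped exons for which each pool had 20 or more informative reads, coloured where past the threshold and grey elsewhere, with very short exons drawn at a minimum width. The red exon between exons 10 and 11 lies in another intron than the blue ones, which sit between exons 3 and 4, 9 and 10, and 12 and 13.

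Just inside the threshold against siCtrl were the 357-nt exon in the siSNRPB pool, with a difference of 0.11, and the 124-nt exon in the siSNRPA1 pool, with 0.13. Just outside it was the 1287-nt form between exons 12 and 13, at 0.08 in the siSNRPA1 pool, 0.15 in the siSNRPB pool and 0.07 in the siCtrl pool. Its share of inclusion reads was 22.2 points higher in the siSNRPB pool than in siCtrl (9.0 to 34.0), so only the size of the level kept it out. The opposite held for the 266-nt exon between exons 5 and 6, which carries a stop codon after 270 residues. Its level was 0.68 in the siSNRPA1 pool, 0.46 in the siSNRPB pool and 0.30 in the siCtrl pool, the largest difference between siSNRPA1 and siCtrl among the SPG7 exons that lie inside introns. The authors' deposited table gives the siSNRPA1 difference a Bayes factor of 6.05e+09. Yet its share of inclusion reads was 93.5% in the siSNRPA1 pool, with 13 exclusion reads of 201, and 89.6% in the siCtrl pool, with 10 of 96, a difference of 3.95 points whose Newcombe interval ran from -2.38 to 12.1.

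The remaining SPG7 exons gave smaller differences or lacked exclusion reads. The 184-nt exon between exons 9 and 10 was at 0.43, 0.33 and 0.36 in the siSNRPA1, siSNRPB and siCtrl pools, with 8 to 10 exclusion reads. Near the 3′ end, the 208-, 165- and 127-nt forms between exons 16 and 17 lay at 0.02 or 0.03 in the siSNRPA1 pool and between 0.06 and 0.08 in the siCtrl pool. The forms that overlap a reference exon, of 765, 893, 948, 390, 142 and 889 nt, had no exclusion read in the siSNRPB or siCtrl pool, and their levels are not backed by counts of the skipped product. Among them the 142-nt form of exon 8, with an alternative start, stood at 0.92 in the siSNRPA1 pool, 0.69 in the siSNRPB pool and 0.53 in the siCtrl pool, and the 948-nt form at 0.18, 0.48 and 0.36. Of the 6 member exons with under 20 informative reads in every pool, 4 were in SPG7, among them a 98-nt exon with no informative read that overlaps an antisense gene, and an event of 1 nt that matches no annotated exon.

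**Figure D3:**
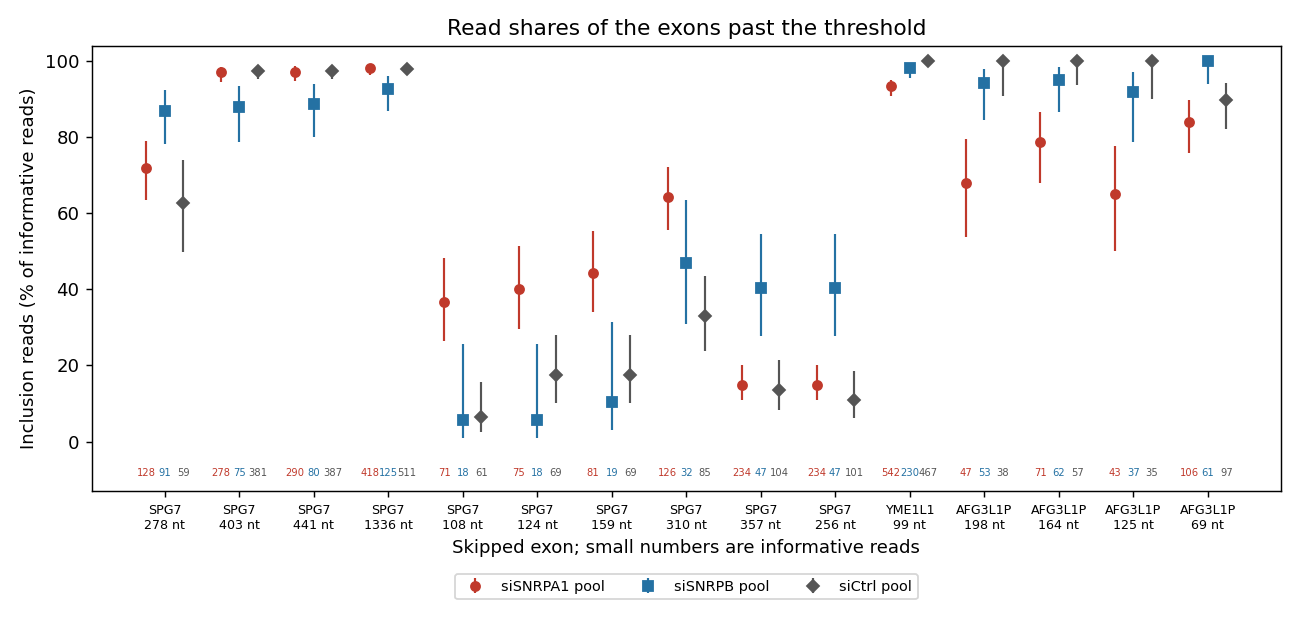
Inclusion reads as a percentage of informative reads for the 15 exons past the threshold in at least 1 comparison, with 95% Wilson intervals, for the siSNRPA1 (red circles), siSNRPB (blue squares) and siCtrl (grey diamonds) pools. Small numbers give the informative reads. The 108-nt SPG7 exon is at 36.6% in the siSNRPA1 pool and 6.56% in the siCtrl pool, and the shares of the 403, 441 and 1336 nt exons lie close together near the top of the axis.

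YME1L1, the i-AAA protease, had its 99-nt coding exon 4 skipped in part of the transcripts of the siSNRPA1 pool. The level was 0.85 in the siSNRPA1 pool, 0.95 in the siSNRPB pool and 1.00 in the siCtrl pool. The exclusion junction was read 36 times beside 506 inclusion reads in the siSNRPA1 pool and 4 times beside 226 in the siSNRPB pool. It was read 0 times beside 467 in the siCtrl pool. Taking 3 reads as the upper limit of a count of 0 allows an exclusion share there of up to 0.642%, tighter than the Wilson interval below. The share of inclusion reads was 93.4% (90.9 to 95.2) in the siSNRPA1 pool, 98.3% (95.6 to 99.3) in the siSNRPB pool and 100% (99.2 to 100) in the siCtrl pool. The difference of siSNRPA1 from siCtrl was -6.64 points (Newcombe interval -9.06 to -4.66). With 542 informative reads in the siSNRPA1 pool and 467 in the siCtrl pool, this exon had the most of the 8 past the threshold in this comparison. By read share alone the difference stayed under 0.1, both from siCtrl (-0.0664) and from siSNRPB (-0.049), so the exon was past the threshold by its level only. All 4 annotated transcripts that hold the exon are protein-coding.

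The other YME1L1 exons lie inside introns of the reference transcript, and none was past the threshold in any comparison. The 171-nt exon between exons 2 and 3, found in protein-coding transcripts, was at 0.24, 0.16 and 0.25 in the siSNRPA1, siSNRPB and siCtrl pools. The 121-nt exon between exons 8 and 9 was at 0.02, 0.04 and 0.03, and the 55-nt exon between exons 1 and 2 was at most 0.01 with no inclusion read in any pool. All 3 levels in the siSNRPA1 pool lay within 0.01 of siCtrl.

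AFG3L1P, the pseudogene, had less exon 2 in the siSNRPA1 pool in every form. The 164-nt form was at 0.63 in the siSNRPA1 pool, 0.88 in the siSNRPB pool and 0.95 in the siCtrl pool. The 198-nt form was at 0.45, 0.84 and 0.88, and the 125-nt form at 0.48, 0.82 and 0.91, in the same order. Exclusion reads, shared by the forms, numbered 15 in the siSNRPA1 pool, 3 in the siSNRPB pool and 0 in the siCtrl pool. For the 164-nt form 56, 59 and 57 inclusion reads stood beside them, and the difference in share of siSNRPA1 from siCtrl was -21.13 points (Newcombe interval -31.98 to -11.03). With 3 reads as the upper limit of a count of 0, the 0 of 57 in siCtrl allows an exclusion share of up to 5.26%.

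The next AFG3L1P exon, exon 3 (69 nt), did not follow the same order. Its level was 0.76 in the siSNRPA1 pool, with 17 exclusion reads of 106, 0.97 in the siSNRPB pool, with 0 of 61, and 0.84 in the siCtrl pool, with 10 of 97. Neither knockdown was past the threshold against siCtrl there. The 100-nt and 155-nt exons had 4 to 19 informative reads per pool and no exclusion read, too few for a comparison.

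Set against each other, the siSNRPA1 and siSNRPB pools gave 9 member exons past the threshold of 33, 3 higher and 6 lower in siSNRPA1, where 4.95% of 14321 exons were past it over all genes, 2.95% higher and 2% lower. With at least 5 reads of each kind the counts were 9 of 18 member exons, and 13.4% over all such exons. Of groups of overlapping exons, 5 of 20 held an exon past the threshold, and the share over all such groups was not computed. The 3 higher were the SPG7 403, 441 and 1336 nt forms, by 0.29 to 0.37. The 6 lower were the SPG7 357- and 256-nt exons, YME1L1 exon 4 by 0.10, and in AFG3L1P exon 3 and the 198- and 125-nt forms of exon 2, by 0.21 to 0.39. For YME1L1 exon 4 the difference in share of siSNRPA1 from siSNRPB was -4.90 points (Newcombe interval -7.54 to -1.70). For the 69-nt AFG3L1P exon it was -16.04 points (-24.2 to -7.76). The direct comparison thus held some of the exons past the threshold against siCtrl, and exon 3 of AFG3L1P, which was not past it in either knockdown. The SPG7 278-nt exon (-0.15), the SPG7 310-nt form (0.13) and the 164-nt form of AFG3L1P exon 2 (-0.25) had enough reads but were not past it. The SPG7 108-, 124- and 159-nt forms had too few reads in the siSNRPB pool to be compared.

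The inclusion level and the share of inclusion reads were far apart for many member exons. Inclusion reads can come from any part of the exon and from both its junctions, while exclusion reads come from 1 junction. In the siSNRPA1 pool the level was below the share for 39 of the 40 exons with at least 20 informative reads, in the siSNRPB pool for 32 of 33, and in the siCtrl pool for 37 of 39. Among member exons with no exclusion read at all, 5 of 12 in the siSNRPA1 pool, 5 of 15 in the siSNRPB pool and 5 of 17 in the siCtrl pool had a level under 0.5. The shares of such levels were 41.7%, 33.3% and 29.4%, beside 12.6%, 9.98% and 10.6% over all exons of the same pools with no exclusion read. Reference exon 4 of SPG7 was one of them, at 0.41, 0.34 and 0.35 with 124, 45 and 98 inclusion reads and no exclusion read. A level also changed with the neighbours of the event: the 390-nt SPG7 exon had 9 inclusion reads in the siCtrl pool in each of its 3 events, but levels between 0.01 and 0.06.

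**Figure D4:**
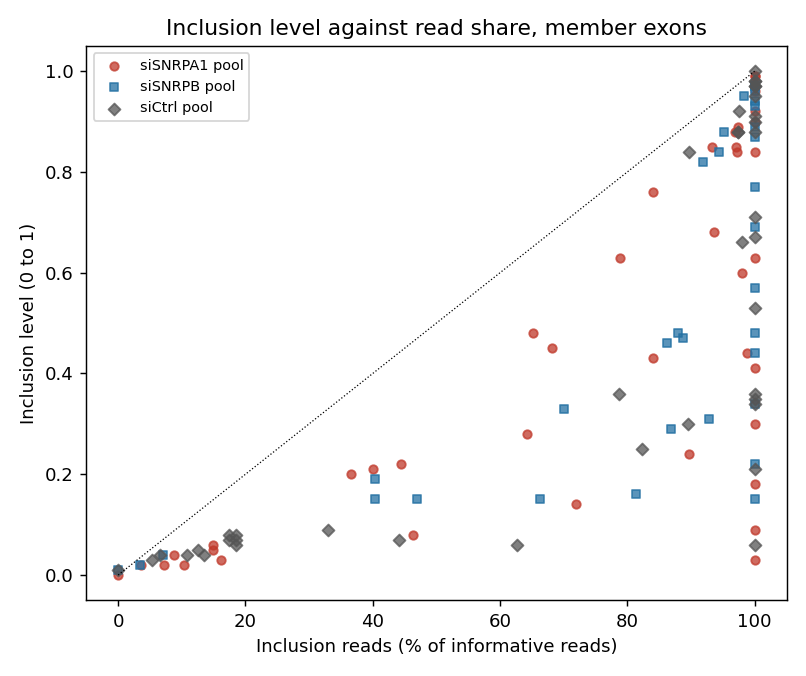
Inclusion level, 0 to 1, against inclusion reads as a percentage of informative reads, for every member exon with at least 20 informative reads in the siSNRPA1 (red circles), siSNRPB (blue squares) or siCtrl (grey diamonds) pool. The dotted line marks equal values. Most points lie below it, and the column of points at 100% runs down to a level of 0.03.

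The reads of each gene over its skipped exons give a rough measure of its abundance. SPG7 had 458 RPM in the siSNRPA1 pool, 454 in the siSNRPB pool and 575 in the siCtrl pool, which is 79.6% and 78.9% of siCtrl for the knockdowns in that order. YME1L1 had 142, 148 and 127, or 111% and 116% of siCtrl. AFG3L1P had 16.5, 28.3 and 21.2, or 78.0% and 134% of siCtrl. Directly compared, the ratio of siSNRPA1 to siSNRPB was 1.01 for SPG7 and 0.582 for AFG3L1P, whose knockdown pools lay on opposite sides of siCtrl. Overlapping exons count some reads more than once in these totals, so no counting interval is given. In bulk RNA fewer cells with a transcript and less of it per cell cannot be told apart. Counting informative reads only, YME1L1 was at 0.916 of siCtrl in the siSNRPB pool, below and not above it, and SPG7 at 0.668.

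Reads over an event that fit neither isoform, such as those running into an intron or using other splice sites, were not used to choose the genes. Their median share over the 36 SPG7 exons was 69.8% in the siSNRPA1 pool, 71.5% in the siSNRPB pool and 64.2% in the siCtrl pool. The share was higher than in siCtrl for 20 of the 36 exons in the siSNRPA1 pool and for 27 in the siSNRPB pool. Exon by exon the median difference from siCtrl was 1.30 points in the siSNRPA1 pool and 3.44 points in the siSNRPB pool. Over all 32034 exons with values the share was higher than in siCtrl for 12005 in the siSNRPA1 pool and 9684 in the siSNRPB pool, with medians of 68.8% (siSNRPA1), 65.2% (siSNRPB) and 71.3% (siCtrl). AFG3L1P had medians of 90.6%, 79.1% and 89.1%, and YME1L1 of 48.3%, 43.3% and 48.2%, in the same order. Overlapping exons share these reads, so the exon counts are not independent.

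The genes that work with these proteases were counted by the same rule. Their lists were drawn up from textbook knowledge but with earlier results of these data known, so they are not independent of the data. Over all exons 5.24% were past the threshold in the siSNRPA1 comparison with siCtrl and 5.7% in the siSNRPB one. Of 24 exons of other mitochondrial proteases, 0 were higher and 1 was lower in the siSNRPA1 pool than in siCtrl, and of 20 in the siSNRPB pool 0 were higher and 1 was lower. The first was the 82-nt exon of ATP23, a protease that processes an ATP synthase subunit, at 0.79 in the siSNRPA1 pool and 0.97 in the siCtrl pool. The second was the 150-nt exon of PARL, a rhomboid protease of the inner membrane, at 0.22 in the siSNRPB pool and 0.53 in the siCtrl pool. Its shares of inclusion reads lay closer together, at 73.9% and 91.6%. The PARL exon overlaps AC131160.1 on the same strand, so its reads cannot be assigned to PARL alone. Median differences in this list were -0.01 in both comparisons, beside 0 and -0.01 over all exons.

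Of 22 exons of partners and scaffolds, 1 was lower in the siSNRPA1 pool and of 16 in the siSNRPB pool 1 was lower, with none higher. The 87-nt exon of CLPB, a disaggregase of the intermembrane space, was at 0.50 in the siSNRPA1 pool and 0.97 in the siCtrl pool. Its shares of inclusion reads lay closer together, at 80.8% and 100%, with 14 and 0 exclusion reads. The 52-nt exon of ATAD3B, an inner membrane ATPase, was at 0.31 in the siSNRPB pool and 0.91 in the siCtrl pool, a value that is uncertain because ATAD3A is a near-identical copy. Among 38 exons of substrates and targets, 1 was higher and 1 lower in the siSNRPA1 pool. These were a 95-nt exon of OPA1, the inner membrane fusion GTPase cleaved by YME1L1, at 0.13 against 0.02 in siCtrl with 15 and 1 inclusion reads, and the 45-nt exon of the complex I subunit NDUFB6, at 0.77 against 0.90 in siCtrl. The NDUFB6 exon overlaps SMIM27 on the other strand. Of 36 such exons none was past the threshold in the siSNRPB pool. The OPA1 exon had too few reads to be compared there, with 4 inclusion and 12 exclusion reads and a level of 0.14.

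Among mitochondrial chaperones, 3 of 24 exons were lower in the siSNRPA1 pool and 2 of 22 in the siSNRPB pool, with none higher, where 4% and 4.55% of all exons were lower in the same comparisons. The genes were HSPA9 and DNAJC19 in the siSNRPA1 comparison and HSPA9 alone in the siSNRPB one, so these counts repeat genes. The 102-nt exon of HSPA9, the main matrix chaperone of the Hsp70 family, was at 0.48 in the siSNRPA1 pool, 0.79 in the siSNRPB pool and 0.99 in the siCtrl pool. Its reads were 84 exclusion beside 577 inclusion reads in the siSNRPA1 pool and 0 beside 496 in the siCtrl pool. The 52-nt exon of DNAJC19, a co-chaperone of the import motor, was at 0.86 in the siSNRPA1 pool and 0.98 in the siCtrl pool. Between the knockdown pools, the lists of proteases, partners, substrates and chaperones had 0 of 20, 2 of 17, 1 of 36 and 3 of 22 exons past the threshold, beside 4.95% of all exons.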

How the data were processed

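Stranded total RNA libraries of MDA-LM2 cells were made with a low-input kit, per the labels' protocols. The submitters' processing notes name STAR 2.7 and hg38, with no role. Per the file headers the authors deposited MISO skipped-exon summaries, 1 per group. The inclusion level is a fraction, which the authors rounded, with the bounds of an interval. Read counts per class (inclusion only, exclusion only, both, neither) stand beside it. The authors also deposited a Bayes factor, a ratio of evidence, and a difference score for each knockdown against siCtrl. That score equalled the difference of the levels in 44653 of 44653 and 38112 of 38112 events. Not given in the sources used here are MISO's version, the strand setting and the way libraries were pooled. The columns of per-sample values left unused numbered 0.

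Each skipped exon was represented by 1 event, the deepest in informative reads summed over the 3 pools. Exons were matched to GENCODE 29, whose APPRIS principal transcript is the reference transcript of a coding gene, and stop codons, frames and protein identity (local alignment, gap penalties 11 and 1) were computed with Python 3.11.15, pandas 2.3.3, scipy 1.17.1 and biopython 1.88. Differences in share have 95% Newcombe intervals. The deposited differences have no replicates, so no p-value was computed. The exons whose levels are described are those of the 4 genes with at least 20 informative reads in at least 1 pool (the 6 others are named to account for every member), those just inside and outside the threshold, and up to 3 of each list and comparison with siCtrl with the largest difference, 1 per gene. The members and the lists were chosen with earlier results of these data known. Alternatives were other read minimums and sizes, no interval, read counts divided by 2, every event, a Bayes factor of at least 10, and read shares in place of levels. The sequence of 1 SPG7 exon is not reported here.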

Additional observations from a re-analysis of the deposited data

How the results depend on the processing

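No paired analysis was possible because each group is 1 pool, and leaving out a library was not possible for the same reason. The siSNRPA1 against siCtrl count of 8 member exons became 3 with a difference of at least 0.2, 4 with read counts divided by 2, and 2 with 1 exon per group of overlapping exons, an alternative chosen after seeing the data. The siSNRPB against siCtrl count of 6 became 1 with read counts divided by 2 and 2 with 1 exon per group. The siSNRPA1 against siSNRPB count of 9 became 5 with a minimum of 50 reads, 14 by size alone, 2 with read counts divided by 2, and 3 with 1 exon per group. In the chained group of the 108- to 310-nt SPG7 exons the exon kept was the 889-nt form, so none of the 4 was counted there. The other 20 recounts stayed within 1.5 times. List exons past the threshold numbered 7, 4 and 6 in these comparisons, against 17, 10 and 13 by size alone, and 3 in the last with a minimum of 50 reads. The SPG7 read ratio of siSNRPA1 to siCtrl, 0.796, was 0.765 over every event and 0.880 with informative reads only, and that of siSNRPB to siCtrl, 0.789, was 0.741 and 0.668. YME1L1 ratios to siCtrl were 1.11 and 1.16 for siSNRPA1 and siSNRPB, and with informative reads only 1.02 and 0.916, the second on the other side of 1. Between siSNRPA1 and siSNRPB, informative reads gave 1.32 for SPG7, in place of 1.01, and 1.11 for YME1L1, in place of 0.955. The causes were not tested. With read shares in place of levels, 12 of 23 named differences moved beyond their interval, none changed sign, and YME1L1 exon 4 (against siCtrl and between knockdowns) and the SPG7 403-, 441- and 1336-nt exons (siSNRPB against siCtrl and between knockdowns) were no longer past the threshold. The siSNRPB pool, at 3396043 informative reads, left the SPG7 108-, 124-, 159-, 208-, 165- and 127-nt exons under 20 informative reads.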
